A study of Mus musculus with 6 samples.

Results

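The genes described here encode SNARE proteins, synaptotagmins, syntaxin-binding proteins and the exocyst, together the machinery that brings vesicles to a target membrane and fuses them with it. Members were taken by symbol from the GRCm38 gene table. They are genes whose symbol starts with Vamp, Stx, Snap, Syt or Exoc and a digit, genes starting with Stxbp or Vti1, and Ykt6, Bet1, Bet1l, Gosr1, Gosr2, Nsf, Napa, Napb and Napg, without Snapc genes. The rule gave 75 of 21887 protein-coding genes. By known role, 37 were assigned to regulated exocytosis (13 SNAREs of the plasma membrane and secretory granules, 17 synaptotagmins and 7 syntaxin-binding proteins), 24 to general fusion (20 SNAREs of intracellular membranes and 4 disassembly factors) and 12 to the exocyst. Snap91, a clathrin adaptor, and Vamp9 were left in no class.

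Open chromatin was measured by ATAC-seq, a method in which the Tn5 transposase cuts and tags accessible DNA, in islets of mice aged 16 weeks that were infected ex vivo with adenovirus for 48 h. Each of 3 groups had 2 libraries of about 50 islets. By their labels, knockout-Acsl4 islets were βRicKO (lacking Rictor, a core subunit of mTORC2) and received Ad-Acsl4, knockout-GFP islets were βRicKO and received Ad-GFP, and control-GFP islets were wildtype and received Ad-GFP. Every group thus carried a virus, and no source used here names the Cre driver of the knockout. No label ties a library to a mouse, so the spread within a group may be technical.

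SNARE proteins sit on opposite membranes and zip into a bundle that pulls them together, after which the ATPase Nsf and its SNAP adaptors (Napa, Napb, Napg) take the bundle apart for reuse. In beta cells, insulin granules dock through Stx1a or Stx4a, Snap25 or Snap23 and Vamp2, with the calcium sensors Syt7 and Syt9 among the triggers of fusion. The exocyst tethers vesicles to the plasma membrane before SNAREs engage. Other SNAREs serve transport between the endoplasmic reticulum, Golgi, endosomes and lysosomes in every cell.

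A member was called marked in a library when a called peak overlapped the 1000 bp on either side of either end of the gene. The score of a peak is the value that the authors deposited for it, read as −log10 of the q-value, and its percentile is its rank within its own list. Scores and percentiles describe a peak within a list and are not compared between libraries.

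The stretches upstream of Stx6, Vamp1 and Snap29 are printed because peaks of 3, 2 and 2 libraries overlapped there, with the bases shared by those peaks in capitals. Stx1a, a plasma membrane syntaxin through which insulin granules dock, is printed in lower case as a member with no gene-end peak in any library. Each is the plus strand of RefSeq's GRCm38.p6 promoter table, cut before the outer start of the gene, at chr1:155158453-155158627 (Stx6), chr6:125215331-125215580 (Vamp1), chr16:17405750-17405999 (Snap29) and chr5:135023232-135023481 (Stx1a). For Napa, the member with the highest score, only 30 bases around its annotated start are shown, at chr7:16098562-16098591, with the letters of the CREB motif in capitals.
Stx6: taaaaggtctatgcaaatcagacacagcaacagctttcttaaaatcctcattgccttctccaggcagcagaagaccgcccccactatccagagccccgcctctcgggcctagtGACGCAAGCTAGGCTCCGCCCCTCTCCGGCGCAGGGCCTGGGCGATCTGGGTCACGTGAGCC
Vamp1: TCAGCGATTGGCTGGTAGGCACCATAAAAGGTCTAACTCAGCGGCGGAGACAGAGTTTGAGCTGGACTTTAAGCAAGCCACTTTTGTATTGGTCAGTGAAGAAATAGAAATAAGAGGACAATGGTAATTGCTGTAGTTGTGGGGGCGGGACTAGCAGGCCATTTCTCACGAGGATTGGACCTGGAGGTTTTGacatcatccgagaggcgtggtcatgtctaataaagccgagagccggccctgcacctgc
Snap29: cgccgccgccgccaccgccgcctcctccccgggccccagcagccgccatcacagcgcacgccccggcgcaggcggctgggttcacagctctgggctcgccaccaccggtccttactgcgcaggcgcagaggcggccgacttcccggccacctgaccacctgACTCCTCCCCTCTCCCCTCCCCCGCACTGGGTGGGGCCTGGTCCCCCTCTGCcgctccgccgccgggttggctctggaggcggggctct
Stx1a: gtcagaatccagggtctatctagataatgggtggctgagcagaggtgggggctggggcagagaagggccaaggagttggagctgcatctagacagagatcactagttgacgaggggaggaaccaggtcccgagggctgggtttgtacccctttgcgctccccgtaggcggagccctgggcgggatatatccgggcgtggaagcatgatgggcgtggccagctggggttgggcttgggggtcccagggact
Napa: gcaggcctgggTGACGTCaacgcagcgggc

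The 6 lists held between 525 and 5874 peaks and differed in where those peaks lay. In the libraries knockout-GFP 1, knockout-GFP 2 and control-GFP 1, 67.2% to 75.5% of peaks were at gene ends. The share was 35.8% in knockout-Acsl4 1, which had the shortest list, 5.29% in knockout-Acsl4 2, which had the longest, and 21.7% in control-GFP 2. After a shift of 100000 bp it was 3.69% to 7.49%. Both libraries of the knockout-Acsl4 group and 1 of 2 controls therefore stand apart from the other 3. In knockout-Acsl4 2 the share after the shift was 3.69%, close to the 5.29% without it. Gene-end peaks of that library, those of Vamp8 and Syt15 among them, are to be read with this limit. Of 15 beta cell markers, Mafa and Nkx6-1 were marked, both in knockout-GFP 2 and control-GFP 1 (13.3% in each, beside 17.3% and 16.7% of all genes). Ins1, Ins2, Iapp and Pdx1 were not marked in any library. Lists of 8 endothelial, 8 stromal and 8 immune cell markers had 0 marked genes in every library, and 1 of 14 acinar and ductal markers was marked, in knockout-GFP 2. Of 10 markers of other endocrine cells Pcsk2 was marked, in control-GFP 1, and of 8 markers of neurons and glia Snap25, itself a member, in knockout-GFP 2. Only 1.02% to 17.3% of all genes were marked per library, so 0 of 8 does not show that a cell type was absent.

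The targeted genes do not bear out the labels. Rictor had no peak in any list, which leaves the knockout unchecked. Acsl4, which encodes an acyl-CoA synthetase for arachidonate, had 0 peaks in both libraries labelled knockout-Acsl4. It had 6 in the library labelled knockout-GFP 1 against 0 in its replicate, and 7 in that labelled control-GFP 1 against 0 in its replicate. Scores of these peaks ran from 12.4 to 91.2 in the library labelled knockout-GFP 1 and from 4.85 to 50.3 in that labelled control-GFP 1. In the latter, the peak of 4.85 was the only peak at a gene end. Its other 6 peaks, with scores of 8.42 to 50.3, overlapped the 6 of knockout-GFP 1. Peaks over the gene carried by the Ad-Acsl4 virus were thus present in 2 libraries labelled Ad-GFP and in neither library labelled Ad-Acsl4. Whether libraries were exchanged was not tested. Library names below are the deposited labels, and every direction between groups holds for those labels only.

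The share of members marked could not be told from that of all protein-coding genes in any library. In knockout-Acsl4 1 and 2, 1 and 2 of the 75 members had a gene-end peak, which is 1.33% (95% exact interval 0.0338 to 7.21) and 2.67% (0.325 to 9.30), beside a background of 1.02% and 1.58% over all genes. In knockout-GFP 1 and 2 the counts were 5, or 6.67% (2.20 to 14.9), and 15, or 20.0% (11.6 to 30.8), beside 8.2% and 17.3%. In control-GFP 1 and 2 they were 13, or 17.3% (9.57 to 27.8), and 2, or 2.67% (0.325 to 9.30), beside 16.7% and 2%. The background lay inside the interval of the members in all 6 libraries. Taking the libraries together, 25 members had a gene-end peak in at least 1 library (33.3%, against 24.5% of all genes), 9 in at least 2 (12.0%, against 13.9%) and 4 in at least 3 (5.33%, against 6.52%). The remaining 50 members were marked in no library. Intervals cover counting error only, and genes of a family are not independent draws.

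**Figure D1:**
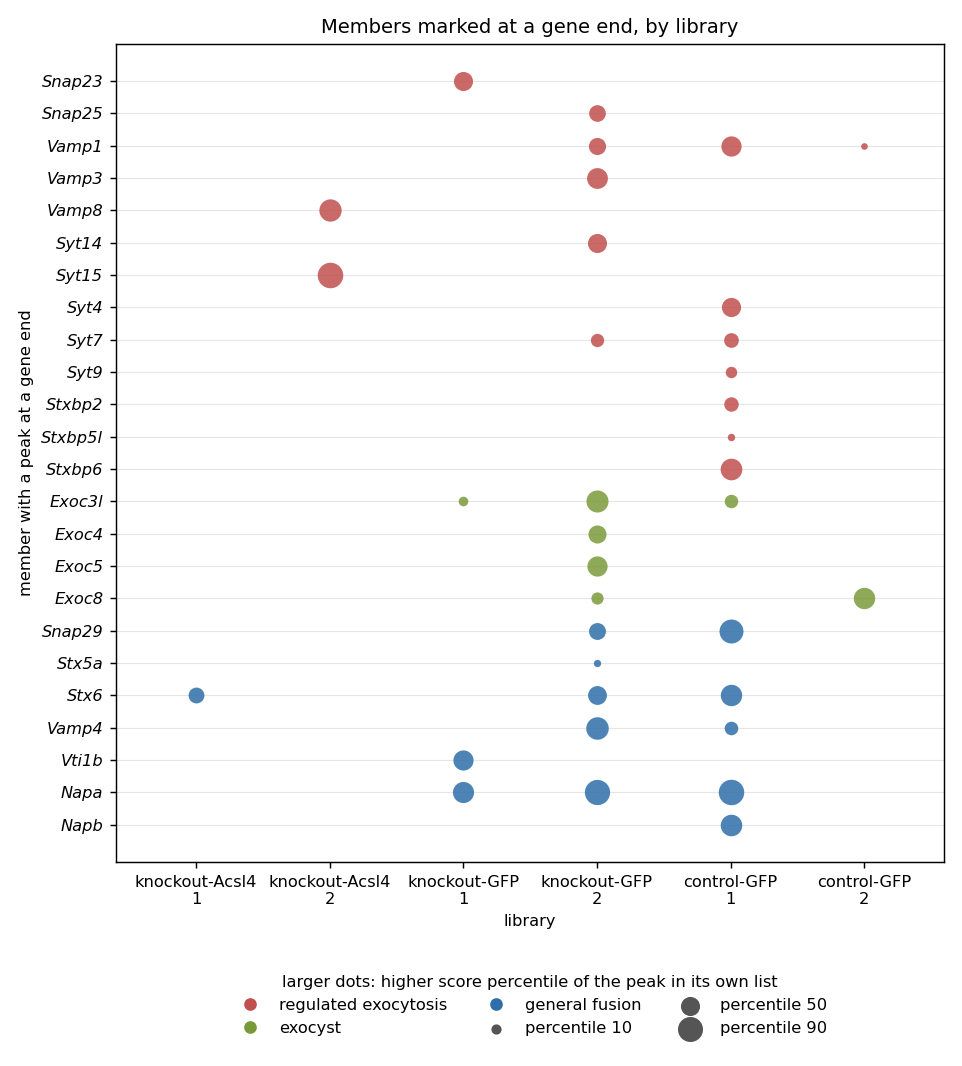
Each dot is a called peak at a gene end of a member (rows, grouped by role) in a library (columns), and a larger dot means a higher percentile of its score within that list. Marked members named in the text are shown; most dots fall in knockout-GFP 2 and control-GFP 1, and Vamp1, Exoc3l, Stx6 and Napa have dots in 3 libraries.

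A difference between regulated exocytosis and general fusion was not detectable in any library. In knockout-GFP 2, 6 of 37 regulated exocytosis genes (16.2%, 6.19 to 32.0) and 5 of 24 general fusion genes (20.8%, 7.13 to 42.2) were marked. In control-GFP 1 the counts were 7 of 37 (18.9%, 7.96 to 35.2) and 5 of 24 (20.8%, 7.13 to 42.2), and in knockout-GFP 1 they were 2 (5.41%) and 2 (8.33%). The sparse libraries gave 0 and 1 in knockout-Acsl4 1, 2 and 0 in knockout-Acsl4 2, and 1 and 0 in control-GFP 2. A count of 0 still allows a share of up to 8.11% of regulated exocytosis genes or 12.5% of general fusion genes, taken as 3 counts, and the exact intervals of these zeros reach 9.49% and 14.2%. The difference, regulated exocytosis minus general fusion, ran from -4.62 percentage points in knockout-GFP 2 to 5.41 in knockout-Acsl4 2, and it was negative in 4 libraries and positive in the other two. The intervals of the classes overlapped in all 6. The exocyst had 4 of 12 genes marked in knockout-GFP 2 (33.3%, 9.92 to 65.1) and 1 of 12 in each of knockout-GFP 1, control-GFP 1 and control-GFP 2 (8.33%).

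**Figure D2:**
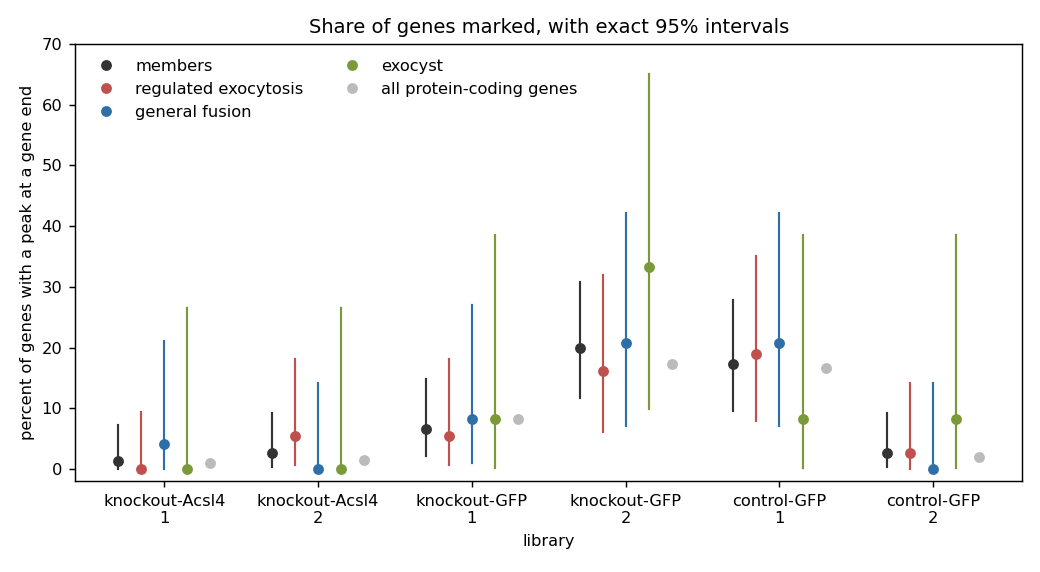
Points give the percent of genes with a gene-end peak in each library and lines the exact 95% interval, for all members, regulated exocytosis, general fusion, exocyst and all protein-coding genes. The intervals of the classes overlap in every library, and the value of all genes lies within the interval of the members in each.

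Among SNAREs of the plasma membrane and granules, 5 of 13 were marked in at least 1 library (38.5%, beside 24.5% of all genes). Differences of single roles from all genes were not tested. Vamp1 (synaptobrevin 1; chromosome 6, 125215581 to 125222306) was the only member of this class marked in 3 libraries, with a score of 5.21 in knockout-GFP 2 and scores of 6.62 and 1.33 in control-GFP 1 and 2, and no peak in the other 3. Its peaks in knockout-GFP 2 (125215281 to 125215584) and control-GFP 1 (125215296 to 125215522) shared 227 bp just upstream of the gene. The peak of control-GFP 2 (125214836 to 125214978) lay 317 bp away from that of control-GFP 1 and stood at percentile 0.921 of its list, so both control libraries marked Vamp1 by different peaks.

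The remaining marked SNAREs of this class were each found in 1 library. Snap25, the neuronal and endocrine t-SNARE, had a peak from 136713428 to 136713618 on chromosome 2 in knockout-GFP 2 with a score of 4.89 (percentile 36.6). Its widely expressed relative Snap23 had a peak from 120567611 to 120567897 on the same chromosome in knockout-GFP 1, with a score of 4.29 (percentile 50.0). Vamp3, the widely expressed v-SNARE of recycling endosomes, was marked in knockout-GFP 2 (7.44, percentile 60.4) by a peak also at an end of Gm38529. Vamp8, a v-SNARE of endosomes and secretory granules, was marked in knockout-Acsl4 2 (2.35, percentile 70.4) and in no other library.

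Among the core partners of the insulin granule, Snap25, Snap23, Syt7 and Syt9 were marked, each in 1 or 2 libraries, while Vamp2, Stx1a, Stx4a and Nsf were marked in none. The peak nearest to Vamp2 was 2.62 kb from the gene in knockout-GFP 2 and 2.53 kb in control-GFP 1, at an end of its neighbour Per1, and 28.9 to 540 kb away in the other 4 lists. For Stx1a the nearest peak was 335 and 397 kb away in knockout-Acsl4 1 and 2, 13.0 and 14.2 kb in knockout-GFP 1 and 2, and 14.3 and 98.1 kb in control-GFP 1 and 2. For Stx4a it was 14129 and 84.7 kb in knockout-Acsl4 1 and 2, 25.8 and 44.6 kb in knockout-GFP 1 and 2, and 24.8 and 1081 kb in control-GFP 1 and 2. For Nsf it was 2826 and 310 kb in knockout-Acsl4 1 and 2, 12.4 kb in both knockout-GFP libraries, and 488 and 2130 kb in control-GFP 1 and 2. These distances depend on list length and were not compared between groups.

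Synaptotagmins are membrane proteins with tandem C2 domains, of which several sense calcium. Of their 17 genes, 5 were marked in at least 1 library (29.4%, beside 24.5% of all genes) and none in 3 libraries. Syt7, a high-affinity calcium sensor (chromosome 19, 10388802 to 10453181), was marked in knockout-GFP 2 at 10388920 to 10389107 (score 3.72, percentile 21.0) and in control-GFP 1 at 10388678 to 10388899 (3.80, percentile 27.3). These peaks are 20 bp apart and do not overlap. Syt9, another calcium sensor of insulin granules, had a peak in control-GFP 1 (2.86, percentile 14.1), as did Syt4, an atypical synaptotagmin (5.83, percentile 50.6). Syt14, which lacks calcium binding, had a peak in knockout-GFP 2 (6.22, percentile 49.8). Syt15 was marked in knockout-Acsl4 2 (4.20, percentile 94.2) by a peak at its far end, 810 bp from the gene end. Syt1, the fast calcium sensor of neurons, had no gene-end peak.

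Of the 7 syntaxin-binding proteins, 3 were marked in control-GFP 1 (42.9%, 9.90 to 81.6, beside 16.7% of all genes) and in no other library. They were Stxbp2 (Munc18-2) at 3.73 (percentile 26.1), Stxbp6 (amisyn) at 7.90 (percentile 66.0) and Stxbp5l (tomosyn-2, an inhibitor of SNARE assembly) at 1.40 (percentile 2.50).

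In the exocyst, 4 of 12 genes were marked in at least 1 library (33.3%, beside 24.5% of all genes). The peaks of 3 of these 4 also lay at the end of another gene. Exoc3l, a relative of the subunit Exoc3 (chromosome 8, 105289923 to 105296966), had scores of 2.09 and 8.70 in knockout-GFP 1 and 2 and 3.32 in control-GFP 1. These peaks overlapped by 126 to 189 bp, lay 379 to 584 bp outside the gene, and were also at an end of 4931428F04Rik. Exoc4 was marked in knockout-GFP 2 (5.77, percentile 44.2), centred 58 bp upstream of its annotated start. Exoc5 was marked in the same library (6.95, percentile 56.7) by a peak closer to the start of its neighbour Ap5m1. Exoc8 was marked in knockout-GFP 2 (3.15, percentile 16.8) and control-GFP 2 (2.93, percentile 64.3) by peaks 183 bp apart, next to Sprtn. The subunits Exoc1, Exoc2, Exoc3, Exoc6, Exoc6b and Exoc7 had no gene-end peak.

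Of the SNAREs of intracellular membranes, 5 of 20 were marked in at least 1 library (25.0%, beside 24.5% of all genes). Stx6, a syntaxin of the trans-Golgi network and endosomes (chromosome 1, 155158628 to 155207567), was the only member with a gene-end peak in knockout-Acsl4 1, where its score was 2.59 (percentile 32.6). Its scores were 6.05 in knockout-GFP 2 (percentile 48.5) and 7.59 in control-GFP 1 (percentile 64.2), and the other 3 lists held no peak at its ends. The peaks of knockout-GFP 2 and control-GFP 1, 155158566 to 155158717 and 155158566 to 155158713, start at the same base, and the peak of knockout-Acsl4 1 shared 66 bp with each. Stx6 thus had overlapping peaks in a library of each group.

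Snap29, which with Stx17 drives the fusion of autophagosomes and lysosomes, had scores of 5.06 in knockout-GFP 2 (percentile 37.9) and 11.8 in control-GFP 1 (percentile 82.2), in peaks sharing 52 bp between Snap29 and its neighbour Pi4ka. Vamp4, a v-SNARE of the trans-Golgi network, had 9.19 in knockout-GFP 2 (percentile 71.9) and 3.38 in control-GFP 1 (percentile 22.3), sharing 30 bp. Vti1b, a late endosomal SNARE, was marked in knockout-GFP 1 only (4.75, percentile 56.4), and Stx5a, the syntaxin of the early Golgi, in knockout-GFP 2 only (1.95, percentile 2.21). The Stx5a peak was also at ends of 1700092M07Rik and Wdr74. Vamp7 is listed on chromosome X from 10737 to 39191, while the first peak on that chromosome starts at 6711335 in any list, so a peak could not be assigned to it.

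Napa, which encodes the adaptor α-SNAP (chromosome 7, 16098202 to 16117982), had the highest score of any member. It had 5.08 and 15.6 in knockout-GFP 1 and 2 and 19.8 in control-GFP 1, at percentiles 62.2, 91.6 and 93.5, and no gene-end peak in either knockout-Acsl4 library or in control-GFP 2. The peaks, 341, 472 and 432 bp wide, shared at least 336 bp in every pairing. Napb, the neuronal adaptor β-SNAP, was marked in control-GFP 1 only (7.75, percentile 65.1). Napg and Nsf were not marked.

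The libraries labelled knockout-GFP 2 and control-GFP 1, which held the most marked members, had 15 and 13 of them and shared 7, which is 46.7% and 53.8% of those lists. Over all genes the same pair shared 2542, or 67.1% and 69.6%. General fusion shared 4 of 5 in both directions (Snap29, Stx6, Vamp4 and Napa), regulated exocytosis 2 of 6 and 2 of 7 (Vamp1 and Syt7), and the exocyst 1 of 4 and 1 of 1 (Exoc3l). Percentiles of general fusion peaks ran from 2.21 to 91.6 in knockout-GFP 2 and from 22.3 to 93.5 in control-GFP 1, with medians of 48.5 and 65.1. Those of regulated exocytosis ran from 21.0 to 60.4 and from 2.50 to 66.0, with medians of 38.6 and 27.3. These counts are small, and neither the difference between classes nor that from all genes was tested. Over all 9 members marked in at least 2 libraries, 13 of 17 pairs of peaks overlapped, and in 6 members every pair did. The same share was not computed over all genes, so these counts do not set members apart.

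For libraries labelled knockout-GFP against those labelled control-GFP, which addresses the loss of Rictor, Exoc3l and Napa were among the members marked in both knockout-GFP libraries (beside 6.61% of all genes), and both were also marked in control-GFP 1. Vamp1 was marked in both controls (beside 1.59% of all genes) and in knockout-GFP 2. Over all genes, 1.04% were marked in both knockout-GFP libraries and neither control, and 0.0914% had the reverse pattern, which no member had. Members marked averaged 13.3% ± 9.43 in knockout-GFP and 10% ± 10.4 in control-GFP (SD, n = 2 each), and the libraries overlapped. The difference of 3.33 percentage points became 10 without knockout-GFP 1, -3.33 without knockout-GFP 2, 10.7 without control-GFP 1 and -4 without control-GFP 2. With both libraries that hold Acsl4 peaks left out, 20.0% of members in knockout-GFP 2 stand against 2.67% in control-GFP 2, beside 17.3% and 2% of all genes. As a ratio to the share of all genes in each library, the difference was -0.20. Without control-GFP 2, 6 members (8%, beside 4.4% of all genes) counted as control only, namely Syt4, Syt9, Stxbp2, Stxbp5l, Stxbp6 and Napb. Without knockout-GFP 1, 5.54% of all genes counted as knockout only, and Snap25, Vamp3, Syt14 and Stx5a were among the members that did. Each gene named for these counts rests on a single library.

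For libraries labelled knockout-Acsl4 against those labelled knockout-GFP, which addresses added Acsl4 in islets without Rictor, 0 members were marked in both knockout-Acsl4 libraries, beside 0.0548% of all genes, and Exoc3l and Napa were among those marked in both knockout-GFP libraries and neither knockout-Acsl4 library, beside 5.79% of all genes. The reverse pattern was found in 0.00914% of all genes. Shares averaged 2.00% ± 0.943 in knockout-Acsl4 and 13.3% ± 9.43 in knockout-GFP (SD, n = 2 each), a difference of -11.3 percentage points without overlap of the libraries. The share over all genes also did not overlap, at 1.02% and 1.58% in knockout-Acsl4 and 8.2% and 17.3% in knockout-GFP. The difference was -18 percentage points without knockout-GFP 1 and -4.67 without knockout-GFP 2, and 14 members (18.7%, beside 15.9% of all genes) and 5 members (6.67%, beside 7.31%) then counted as knockout-GFP only. At an equal list length of 525 peaks it was 0.667 percentage points, and as a ratio to the share of all genes 0.51, both in the opposite direction. Both rest on very few genes. At equal length 1 member was marked in each knockout-Acsl4 library, against 0 and 1 in knockout-GFP 1 and 2. The ratios of knockout-Acsl4 1 and 2 rest on 1 and 2 marked members. Whether open chromatin at these genes differs cannot be told apart from the difference between the lists.

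For libraries labelled knockout-Acsl4 against those labelled control-GFP, 0 members were marked in knockout-Acsl4 only, beside 0.00457% of all genes, and Vamp1 was the only member marked in control-GFP only (1.33%, beside 1.32% of all genes). That call ends with a window of 500 bp, as the peak of control-GFP 2 lies 603 bp away. Shares averaged 2.00% ± 0.943 in knockout-Acsl4 and 10% ± 10.4 in control-GFP (SD, n = 2 each). The difference of -8 percentage points became -0.667 without control-GFP 1 and -15.3 without control-GFP 2. Its direction turned at equal list lengths (0.667 percentage points) and as a ratio to the share of all genes (0.31), which was 1.02% and 1.58% in knockout-Acsl4 and 16.7% and 2% in control-GFP. At equal lengths only 1 member was marked in each knockout-Acsl4 library and in control-GFP 1, and 0 in control-GFP 2. Without control-GFP 2, 12 members (16%, beside 15.3% of all genes) counted as control only. In each of the 3 comparisons, 2 libraries against 2 allow no two-sided exact permutation p below 0.333, and no test per gene was made.

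Peaks of members lay almost always at the start of the gene. The strand was taken from the promoter table, which matched 61 of the 75 members. Snap25, Vamp2, Vamp3, Syt4, Syt7 and Exoc3l were among those with no entry. Of 28 peaks at members with a strand, 27 were at the start end and 1, that of Syt15, at the far end. Over all genes 95.7% were at the start end, and the share was lowest in knockout-Acsl4 2 (71.5%), the library of the Syt15 peak. Centres lay from 674 bp before to 347 bp after the annotated start, with a median of 61.5 bp before it, and 21 of the 27 were within 200 bp. The 38 member peaks were 94 to 472 bp wide (median 198.5 bp), and 10 of them, in 6 members, were also at an end of another protein-coding gene. Near the 1000 bp limit of the rule, the outermost peaks inside were those of Syt15 (810 bp), Stxbp6 (681 bp) and Vamp1 in control-GFP 2 (603 bp), and the first outside were second peaks near Stx5a (1344 bp, at an end of Nxf1) and Napa (1940 bp, at an end of Kptn).

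**Figure D3:**
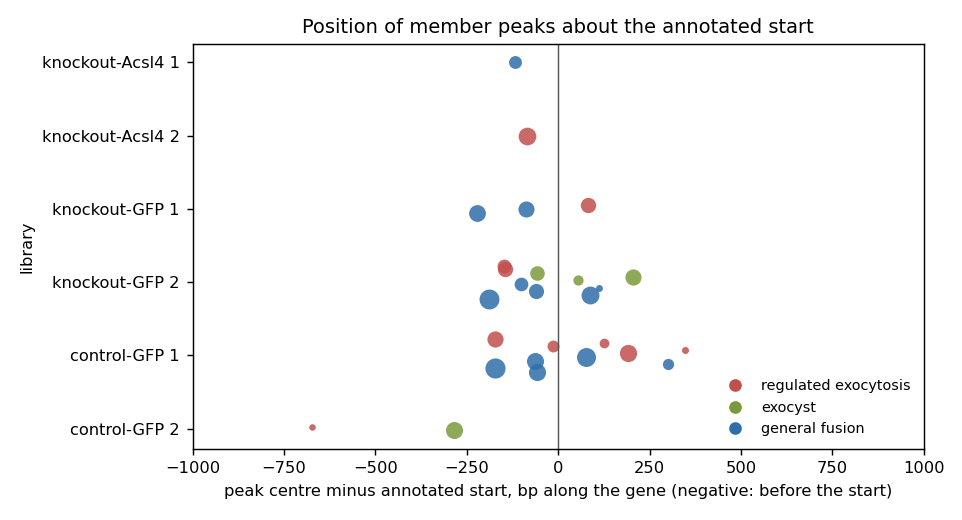
Each dot is a start-end peak of a member with a known strand, placed by the distance of its centre from the annotated start along the gene in bp, with a row for each library and larger dots for higher percentiles. Of the 27 dots, 21 lie within 200 bp of the start, and the farthest, 674 bp before it, is the Vamp1 peak of control-GFP 2.

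Stx3, a plasma membrane syntaxin, is a member that was not marked, but both controls had a peak inside the gene, beyond the 1000 bp window. It was singled out after its values were seen. Its annotated start on chromosome 19, at 11819403, lies inside the listed gene (11775118 to 11821569). Peaks at 11818504 to 11818988 in control-GFP 1 (score 3.55, percentile 23.7) and 11818536 to 11818728 in control-GFP 2 (1.66, percentile 7.06) were centred 657 and 771 bp after that start. No library of knockout-Acsl4 or knockout-GFP had a peak there, and the nearest was 90.6 kb from the gene. With annotated starts added to the gene ends, Stx3 was the only member with the pattern of both controls and neither knockout-GFP library. The share of all genes with that pattern under this setting is not given here.

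Peaks inside member genes, away from their ends, came mostly from knockout-Acsl4 2. That library had 14 such peaks in 8 members beside 2 at gene ends, and knockout-Acsl4 1 had 0 beside 1. Knockout-GFP 1 and 2 had 1 and 0 beside 5 and 15, and control-GFP 1 and 2 had 2 and 3 beside 13 and 2. Over all genes, peaks inside genes made 87.9% of those in or at genes in knockout-Acsl4 2 and 57.0% in control-GFP 2, against 16.0% to 37.7% in the other 4 libraries. Syt1, the longest synaptotagmin gene, held 5 in knockout-Acsl4 2 and 1 in control-GFP 2. Exoc2 held 2 in knockout-Acsl4 2, of which 30835934 to 30836155 on chromosome 13 was at percentile 98.2. Apart from Stx3, no such peak was shared between libraries. The 10 members with such a peak had a median length of 204 kb, against 28.6 kb for the other 65.

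**Figure D4:**
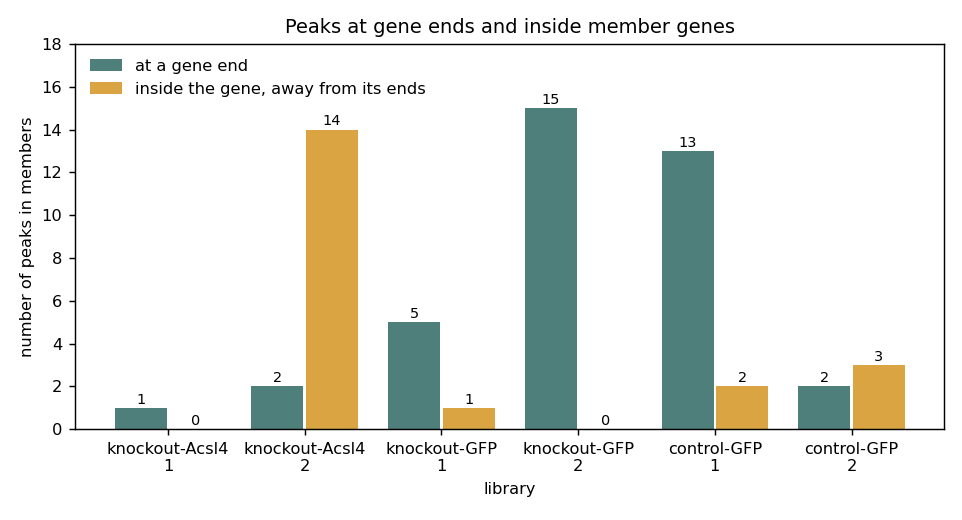
Bars count the peaks at gene ends and the peaks inside member genes away from the ends in each library. Peaks inside genes outnumber those at ends in knockout-Acsl4 2 (14 and 2) and control-GFP 2 (3 and 2), and those at ends lead in the other 4 libraries.

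Promoter windows ran from 250 bases before to 50 after the annotated start. Their observed over expected CpG ratio had a median of 0.759 in 61 members and 0.577 in 17492 genes. It was 0.726 in 26 regulated exocytosis, 0.823 in 22 general fusion and 0.735 in 11 exocyst genes. Over all genes, those marked in at least 1 library had a median of 0.823 and those never marked 0.399. Among members, 19 marked members had a median of 0.737 and 42 never marked 0.765. Of members with a ratio of 0.6 or more, 12 of 43 were marked (27.9%, 15.3 to 43.7), against 43.8% of all such genes, and below 0.6 it was 7 of 18 (38.9%, 17.3 to 64.3), against 7.81%. At a limit of 0.5 the shares were 17 of 53 (32.1%) and 2 of 8 (25.0%), so the order of these shares depends on where the limit is set. The 7 marked members below 0.6 were Vamp8, Syt15, Stxbp5l, Stxbp6, Napb, Exoc4 and Exoc5, and 5 of them had a ratio between 0.5 and 0.6. The highest ratios among members never marked included those of Nsf (1.14), Vti1a (1.10) and Syt16 (1.06).

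**Figure D5:**
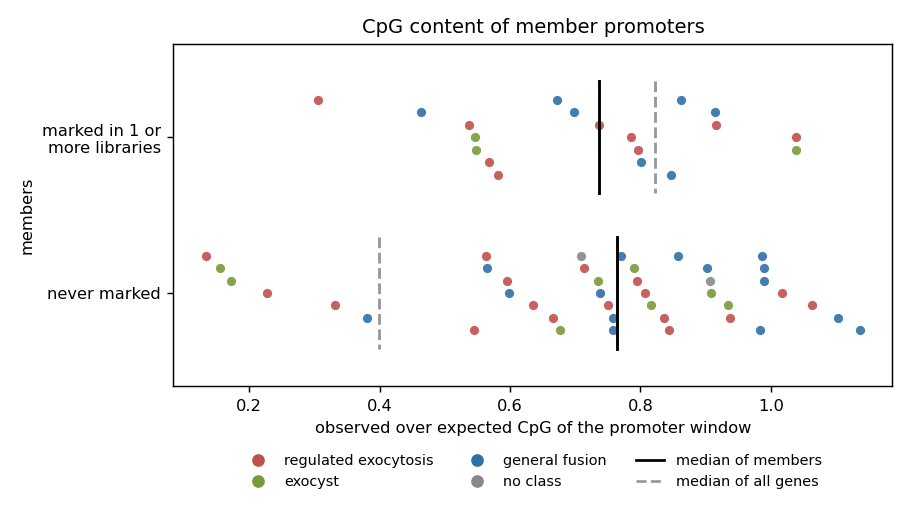
Each point is the observed over expected CpG ratio of a member's promoter window, coloured by class, for members marked in at least 1 library and members never marked. Black lines give the medians of members (0.737 and 0.765) and dashed grey lines those of all genes (0.823 and 0.399).

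Searched on both strands, the Sp/KLF letters GGGCGG were in 43 of 61 member windows (70.5%, against 46.3% of all windows) and the TATA letters TATAAA in 1, that of Stx3 (1.64%, against 13.3%). The CCAAT letters of NF-Y were in 17 (27.9%, against 39.2%). The ETS letters CCGGAAG were in 2 of 26 regulated exocytosis and 6 of 22 general fusion windows, against 11.9% of all. CAGCACC, part of the RE1 element bound by the neuronal repressor REST, was in 4 of 26 and 1 of 22, against 7.15% of all. The E-box CACGTG was in 5 of 19 marked and 3 of 42 never marked members, against 7.91% of all. Over all genes it was in 10.4% of those marked and 7.08% of those never marked. The Sp/KLF letters were in 10 of 19 marked (52.6%) and 33 of 42 never marked members (78.6%), against 72.1% and 37.6% over all genes. The FOXO letters TGTTTAC were in 2 members, Stx2 and Stx19 (3.28%, against 2.93%), both never marked. TGACGTC (CREB) and GCATGCG (NRF1) were in 3 and 5 members, against 3.98% and 4.50% of all windows. No string overlaps another by 3 or more end letters. In the sequences above, the 62 capitals of Stx6 hold a Sp/KLF match at 155158581 to 155158586 and an E-box at 155158618 to 155158623. The 192 capitals of Vamp1 hold 3 NF-Y matches and a Sp/KLF match, and the upstream stretch of Snap29 holds no match. The CREB letters of Napa, 16098573 to 16098579, lie inside the peaks of knockout-GFP 2 and control-GFP 1 and outside that of knockout-GFP 1.

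Other genes of the same pathways were counted from lists of 40 exocytosis and 36 fusion and tethering genes. Of the exocytosis genes, 0 were marked in each knockout-Acsl4 library, 0 and 3 (7.50%) in knockout-GFP 1 and 2, and 6 (15.0%) and 1 (2.50%) in control-GFP 1 and 2. Of the fusion and tethering genes, 2 were marked in each knockout-Acsl4 library, 2 and 11 (30.6%) in knockout-GFP 1 and 2, and 7 (19.4%) and 1 (2.78%) in control-GFP 1 and 2. Over all genes the shares were 1.02% and 1.58% in knockout-Acsl4, 8.2% and 17.3% in knockout-GFP and 16.7% and 2% in control-GFP. The difference between the lists was not tested. Genes marked in 3 or more libraries were Erc1, a scaffold of the active zone, in the first list, and Golga2 (GM130), Uso1 (p115), Trappc1 and Trappc9, tethers of the Golgi and the TRAPP complexes, in the second. Golga2 had scores of 2.51 in knockout-Acsl4 1, 7.17 and 11.1 in knockout-GFP 1 and 2 and 7.30 in control-GFP 1. Uso1 had 3.67 in knockout-Acsl4 1, 11.1 in knockout-GFP 2 and 14.1 in control-GFP 1. Unc13a, Rims2, Cplx2, Doc2b, Rab27a and Cadps, which prime or clamp granule fusion, had no gene-end peak in any library. Other exocytosis genes did: Unc13b, Rims3, Rab3a and Rph3al in control-GFP 1, Rab3d in knockout-GFP 2, and Pclo in both.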

How the data were processed

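Peak lists of 6 ATAC-seq libraries, 1 per library, were used as deposited by the authors, and the value of each peak was read as a −log10 q-value (the column has no header, and no list holds a value under 1.30, the −log10 of 0.05). The submitters' processing notes name BWA 0.7.10, MACS2 2.1.1, Trimmomatic, FastQC and SAMtools with no settings. These notes name human builds, and coordinates were treated as GRCm38 because peaks lay at mouse gene ends more often than after a shift in every list, least so in knockout-Acsl4 2. The number of reads per library was not given in the sources used here. List length stands in its place.

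Gene positions (mitochondrial genes left out) and promoter sequences came from RefSeq tables of GRCm38.p6. Marking used an overlap of at least 1 bp and was tested on simulated peaks. Shares have exact Clopper-Pearson 95% intervals. The planned permutation p-values are not given, since members, roles and lists were chosen with earlier results of these data known. Named genes are members marked in 3 or more libraries or in a group's 2 libraries and none of another group's, up to 4 more per role, the insulin granule set, and genes of other lists marked in 3 or more libraries. Other genes named, such as Syt1, Exoc2, Stx3, markers and unmarked genes, were chosen after their values were seen. Replicate numbers were not treated as pairs. Sequences from chromosome 18 are not shown, and some members are not reported here by name. Python 3.11.15 and SciPy 1.17.1 were used.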

Additional observations from a re-analysis of the deposited data

How the results depend on the processing

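Of 324 values under alternative settings, covering 28 results, 265 met the criterion set for their kind (a share inside the exact interval of the reported one, a count within 1.5 times, a difference of the same sign, whatever its size), 52 moved and 7 reversed. Some of the 265 could not change. These are the values without regions called in all 6 libraries, as no member was marked in more than 3, and the differences with a replicate block. Shares of all genes under the alternative settings of this paragraph are not given here. The shares and counts of members below therefore cannot be read as results about the members. Keeping the better 50% of each list gave 0% of members in knockout-Acsl4 1, 6.67% in knockout-GFP 2 and 8% in control-GFP 1. Regulated exocytosis then had 0% in knockout-GFP 1, 2.70% in knockout-GFP 2, 5.41% in control-GFP 1 and 0% in control-GFP 2, and general fusion 0% in knockout-Acsl4 1. The counts were then 0 members in knockout-GFP only against control-GFP, 1 (Napa) in knockout-GFP only against knockout-Acsl4, 0 in control-GFP only and 1 in 3 or more libraries, and the difference of knockout-GFP minus control-GFP was 0. At equal list lengths, members had 0% in knockout-GFP 1, 1.33% in knockout-GFP 2 and in control-GFP 1 and 0% in control-GFP 2. Regulated exocytosis had 0% in all 4 of these, and general fusion 0% in knockout-GFP 1 and 4.17% in knockout-GFP 2 and in control-GFP 1. The counts of members in knockout-GFP only, in control-GFP only and in 3 or more libraries were then 0, and the differences were 0.667 for knockout-Acsl4 minus knockout-GFP and minus control-GFP, and 0 for knockout-GFP minus control-GFP. These settings hold fewer peaks by construction. A window of 500 bp gave 0% of regulated exocytosis in control-GFP 2, 0 members in control-GFP only against knockout-Acsl4 and 2 in 3 or more libraries (Stx6 and Napa). A window of 3000 bp, or annotated starts added to the gene ends (chosen after seeing the data), gave 1 member in control-GFP only against knockout-GFP (Stx3) and 2 against knockout-Acsl4 (Stx3 and Vamp1). Counting only the start end gave 0 in knockout-GFP only against control-GFP and 1 (Napa) against knockout-Acsl4, a setting that leaves out members with no strand. As a ratio to the share of all genes, the differences reversed to 0.51 for knockout-Acsl4 minus knockout-GFP, 0.31 for knockout-Acsl4 minus control-GFP and -0.20 for knockout-GFP minus control-GFP; the cause was not tested.

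Leaving out each library in turn, members in knockout-Acsl4 only ran from 0 to 2 against either other group, those in knockout-GFP only from 3 to 14 against knockout-Acsl4 and from 1 to 7 against control-GFP, and those in control-GFP only from 1 to 12 against knockout-Acsl4 and from 0 to 6 against knockout-GFP. Members in 3 or more libraries ran from 0 to 4. The share of all genes is given above for some of these counts and is not given here for the others. Those others cannot be read as results about the members. The differences ran from -18 to -4.67 for knockout-Acsl4 minus knockout-GFP, from -15.3 to -0.667 for knockout-Acsl4 minus control-GFP and from -4 to 10.7 for knockout-GFP minus control-GFP. With the replicate number as a replicate block, which the labels do not show to be a true pairing, the differences were -11.3, -8 and 3.33. They equal the values without a block by construction. With 525 to 5874 peaks a list, absence of a peak does not show closed chromatin.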

Other observations

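Both Vamp2 and Vamp3 have a Per clock gene as neighbour, with a peak at an end of that neighbour in 2 libraries, chosen after the values were seen. The Per1 peak was 2621 bp from Vamp2 in knockout-GFP 2 (score 6.33, percentile 50.5) and 2533 bp in control-GFP 1 (4.54, percentile 36.7). The Per3 peak, also at an end of Gm38529, was 2365 bp from Vamp3 in knockout-GFP 2 (4.81, percentile 33.8) and 2394 bp in control-GFP 1 (12.1, percentile 82.9). Neither peak counts for the v-SNARE gene under the rule.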
